A study of Mus musculus with 16 samples.

Results

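The major urinary proteins were represented on the arrays by 2 genes, Mup3 and Mup9, of 9669 named by probes with a single symbol. Each had 1 of the 20419 probes, chosen by its symbol in the platform's annotation. None of the 806 probes annotated to several symbols carried a Mup symbol or synonym, and no other Mup gene had a probe of its own. The animals were wildtype males of the inbred strain C3HeB/FeJ, 105 ± 5 days old, and the labels name no treatment. On each of 16 arrays with 2 colours, RNA from 1 organ of a single mouse was hybridised with a pool of 5 animals of the opposite organ. Single kidneys met a liver pool on 7 arrays (3 for mouse 1, 3 for mouse 2 and 1 for mouse 3), called kidney arrays here, and single livers of the same mice met a kidney pool on 9 (3 for each mouse), called liver arrays. Repeat arrays of a mouse share their RNA, so n is 3 mice, and the pools carry no spread of their own. Kidney was the left kidney and liver the dorsal lobe.

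Major urinary proteins are small secreted lipocalins. In the mouse they are made mainly by hepatocytes, pass from blood into urine, and there carry volatile pheromones and act as scent signals themselves. Their liver transcripts are among the most abundant in adult males, and their synthesis is known to depend on pulsed growth hormone and on androgens. The Mup genes form a tandem cluster of very similar copies. In the RefSeq table for GRCm38.p6, 22 protein-coding Mup genes lie on chromosome 4. The protein-coding neighbours of Mup9 are Mup8 and Mup1, and those of Mup3 are Mup20 and Mup21. A cDNA probe can bind the transcripts of several such copies, so neither probe's value can be taken as specific to the gene that names it.

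The sequences just upstream of both genes show how far the copies differ. The 250 bases before the annotated start were taken from RefSeq promoters of GRCm38.p6, Mup3 at chr4:62087318-62087567 on the minus strand and Mup9 at chr4:60421953-60422202 on the minus strand. Capitals mark the TATA element TATATAA and the letters ATCAAT, the core bound by the liver-enriched ONECUT factors.
Mup3: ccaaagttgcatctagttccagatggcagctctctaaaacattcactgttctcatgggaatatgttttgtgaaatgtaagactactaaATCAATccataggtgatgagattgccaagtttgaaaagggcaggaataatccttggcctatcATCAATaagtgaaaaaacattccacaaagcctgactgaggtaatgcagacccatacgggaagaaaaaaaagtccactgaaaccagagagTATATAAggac
Mup9: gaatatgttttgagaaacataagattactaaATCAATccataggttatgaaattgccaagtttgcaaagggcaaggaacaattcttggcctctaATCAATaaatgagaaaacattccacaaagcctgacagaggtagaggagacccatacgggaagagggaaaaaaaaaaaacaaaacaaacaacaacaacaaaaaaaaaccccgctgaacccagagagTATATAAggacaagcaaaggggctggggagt
Both windows held 1 TATATAA, at -31 to -25 in Mup9 and at -11 to -5 in Mup3, counted from the annotated start with the base before it as -1. Both held ATCAAT 2 times. Over 32851 mouse promoters, searched on both strands in windows of this length, 3.04% held TATATAA and 6.72% held ATCAAT. Of the 14 Mup windows among them, 11 held the first motif and 14 the other. The STAT5 palindrome TTCNNNGAA was in none of the 14 Mup windows (0 of 14) and in 7.02% of all. AGAACA, part of the androgen and glucocorticoid receptor element, was in 2 of the 14, those of Mup3 and Mup21, and in 16.1% of all. The motifs were picked after the Mup windows had been seen, and a match describes letters only.

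The Mup3 and Mup9 windows were 74.8% identical, with 172 of 230 aligned columns the same. Columns with a gap in either window count as differences here, so the rest is not a share of substituted bases. The Mup9 window was closer to most other copies, with a median identity of 94.0% to the 13 other Mup promoters and a highest value of 98.4%, to Mup17. The Mup3 window had a median of 76.8% and was closest to its neighbour Mup21, at 92.3%. Only 14 of the 22 Mup genes had a promoter to compare, and the neighbours Mup20, Mup8 and Mup1 were not among them. The stretches compared also differed in length, from 113 columns for Mup9 with Mup7 to 250 for Mup9 with Mup10. The identity of the probes themselves to other Mup transcripts was not analysed here.

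Values with a sign are given as log2 of kidney over liver from here on, so a negative value is liver excess. Which channel stood on top of the ratio is not stated in the labels, whose titles put the single mouse first. By that order Alb (albumin) would be a kidney transcript, with mean deposited values of 8.44 on kidney arrays and -7.57 on liver arrays. That of Kap, the androgen-regulated protein of the renal proximal tubule, was -5.77 in the 7 kidney arrays and 6.08 in the 9 liver arrays. Deposited values were thus taken to be pool over single mouse, against the order of the titles, and the sign was turned on the kidney arrays. Under the title order "kidney" and "liver" would change places in each result, and sizes and tests would stay. With this reading all 11 measured proximal tubule markers (of 15 listed) were higher in kidney and 14 of 15 hepatocyte markers higher in liver, the exception being Apoa2 at -0.79. Kap and Alb, from which the direction was read, are among those counted, so their own sides were fixed beforehand. The 4 measured blood cell markers did not pass, and of 3 adipocyte markers Fabp4 was higher in kidney (1.54). The median of all probes was between -0.0027 and -0.0006 on the 10 arrays of mice 1 and 3, but between -1.49 and -1.19 on the 6 arrays of mouse 2. Between 15480 and 19432 probes had a value on an array, and both Mup probes had one on all 16. Ratios give no level in either organ, and fewer hepatocytes and less RNA per cell cannot be told apart in whole tissue.

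Both Mup probes lay far on the liver side on every array. Mup3, the major urinary protein with the symbol MUPIII among its synonyms, had values of -7.58, -6.72 and -7.06 on the kidney arrays of mouse 1, of -8.46, -8.62 and -8.66 on those of mouse 2 and of -8.08 on that of mouse 3. On the liver arrays it had -7.66, -7.76 and -7.72 in mouse 1, -8.01, -9.19 and -8.33 in mouse 2 and -6.98, -7.65 and -7.36 in mouse 3. All 16 values thus meant a liver excess of 105-fold to 584-fold, and those of kidney and liver arrays overlapped over most of their range.

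Mup9, a lipocalin gene like Mup3, had values of -6.78, -6.80 and -6.75 on the kidney arrays of mouse 1, of -9.20, -8.79 and -9.20 on those of mouse 2 and of -6.58 on that of mouse 3. On the liver arrays it had -7.43, -7.09 and -7.36 in mouse 1, -8.46, -9.59 and -8.42 in mouse 2 and -5.53, -7.98 and -5.73 in mouse 3. Its liver excess ranged from 46.2-fold to 771-fold. The lowest liver excess was on 2 of the 3 liver arrays of mouse 3, while the third array of that RNA was among the higher ones.

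**Figure D1:**
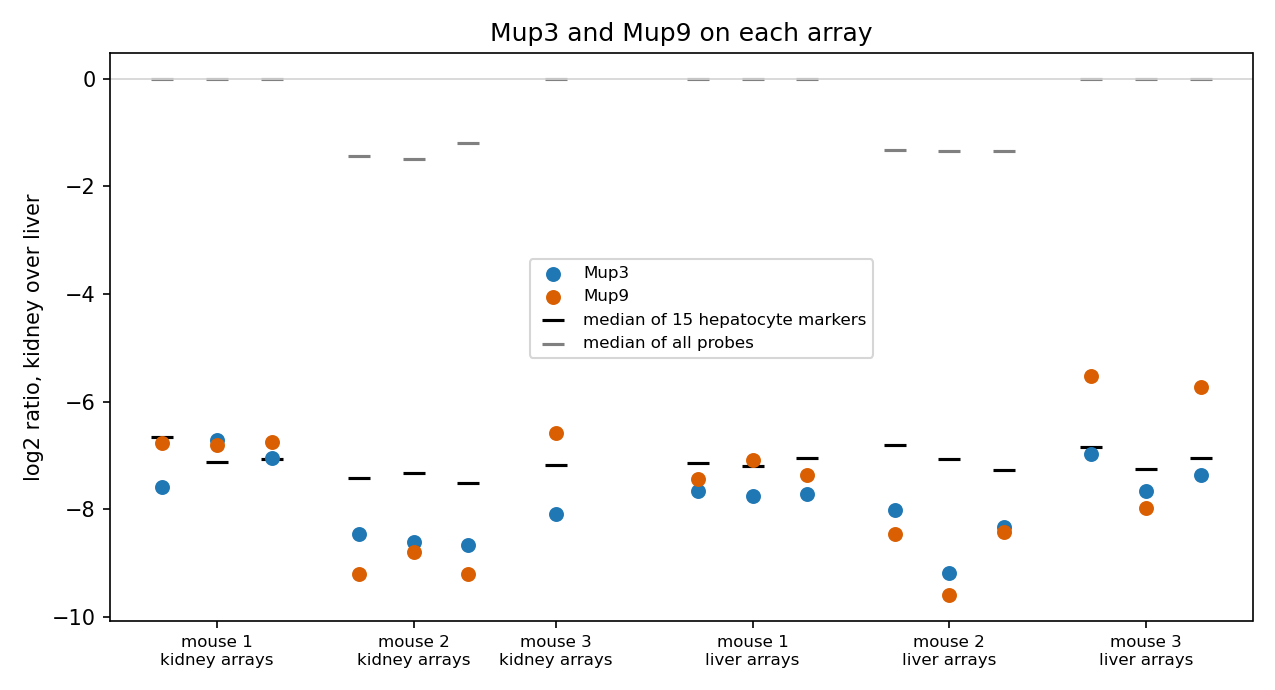
Log2 ratio of kidney over liver of Mup3 (blue) and Mup9 (orange) on each of 16 arrays, grouped by mouse, with kidney arrays on the left and liver arrays on the right; black bars are the median of 15 hepatocyte markers and grey bars the median of all probes on the array. Both Mup probes lie between -9.59 and -5.53 throughout, and on each kind of arrays lowest in mouse 2, where the grey bars also lie below 0 and the black bars stay between -7.51 and -6.80.

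Averaged per mouse, Mup3 was at -7.93 ± 0.74 on kidney arrays and -7.85 ± 0.60 on liver arrays (SD, n = 3 mice each). The fit over both kinds of arrays gave -7.89 (SE 0.28), a 237-fold liver excess, with an adjusted p of 1.26e-06 (limma, Benjamini-Hochberg over 18670 probes). Mup9 was at -7.47 ± 1.38 on kidney arrays and -7.51 ± 1.22 on liver arrays (SD, n = 3 mice each), as deposited a wider spread between mice than that of Mup3 on both kinds. With each array centred on its median the SDs were close on kidney arrays, 0.60 for Mup9 and 0.53 for Mup3. On liver arrays they were 0.57 for Mup9 and 0.28 for Mup3. The estimate for Mup9 was -7.49 (SE 0.42), a 180-fold liver excess, with an adjusted p of 1.2e-05 (limma, Benjamini-Hochberg). Of all probes tested 12.6% passed, 5.18% as higher in kidney and 7.45% as higher in liver, and by estimate Mup3 was the 5th and Mup9 the 14th of 18670 from the liver end. Centring each array turned the split of calls round, with 3328 probes higher in kidney and 2117 in liver, against 967 in kidney and 1391 in liver as deposited.

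The size of these estimates depended on mouse 2 and on the scaling, while the direction and the call did not. Without mouse 2 the liver excess was 189-fold for Mup3 and 109-fold for Mup9, and with arrays scaled to one spread after centring it was 125-fold for Mup3 and 90.3-fold for Mup9. The fit took both averages of a mouse as independent. Deviations of a mouse correlated positively between its organs as kidney over liver, and therefore negatively as single sample over pool, where the sign turns on the liver arrays. The SE of the fit for the organ difference may thus be too small. A replicate block by mouse number, on single sample over pool, gave an SE of 0.50 for both probes. The block on kidney over liver gave 0.12 for Mup3 and 0.10 for Mup9. That block takes the differences between mice out of the SE, so these smaller values do not measure the spread over mice.

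The organ difference was also compared between kinds of arrays, that is, between single kidneys against pooled liver and single livers against pooled kidney. Kidney arrays minus liver arrays came to -0.08 (SE 0.55) for Mup3 and 0.04 (SE 0.84) for Mup9, with adjusted p of 1.0 for both (limma, Benjamini-Hochberg). By limma 0.0% of the 18670 probes passed this comparison, and 46 had an unadjusted p under 0.05. Because the averages of a mouse deviated together as kidney over liver, the fit without a block tends to overstate the SE of this contrast. With the replicate block on kidney over liver, added after seeing the data, the SE was 0.25 for Mup3 and 0.20 for Mup9, and neither passed (adjusted p 0.945 for Mup3 and 0.968 for Mup9, limma). In that fit 18 of 18461 probes passed (0.0975%), and 1542 had an unadjusted p under 0.05.

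A rank within an array does not move with that array's median. Mup3 ranked between 2 and 23 among all probes of an array by liver excess, with a median rank of 7.5, and was among the first 20 on 15 of 16 arrays. Mup9 ranked between 1 and 56, with a median of 15, and was among the first 20 on 10 arrays. On 1 liver array of mouse 2 Mup9 was first and Mup3 second of 17333 probes. In mouse 2 Mup9 ranked between 1 and 10 on all 6 arrays, in mouse 1 between 15 and 28 on 6 arrays, and in mouse 3 at 3, 40, 47 and 56. The ranks of Mup9 in mouse 2 did not overlap those in mouse 1, whereas the ranks of Mup3 overlapped between all mice. The share of all probes whose ranks did not overlap between these mice was not counted, so the gap cannot be called particular to Mup9.

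**Figure D2:**
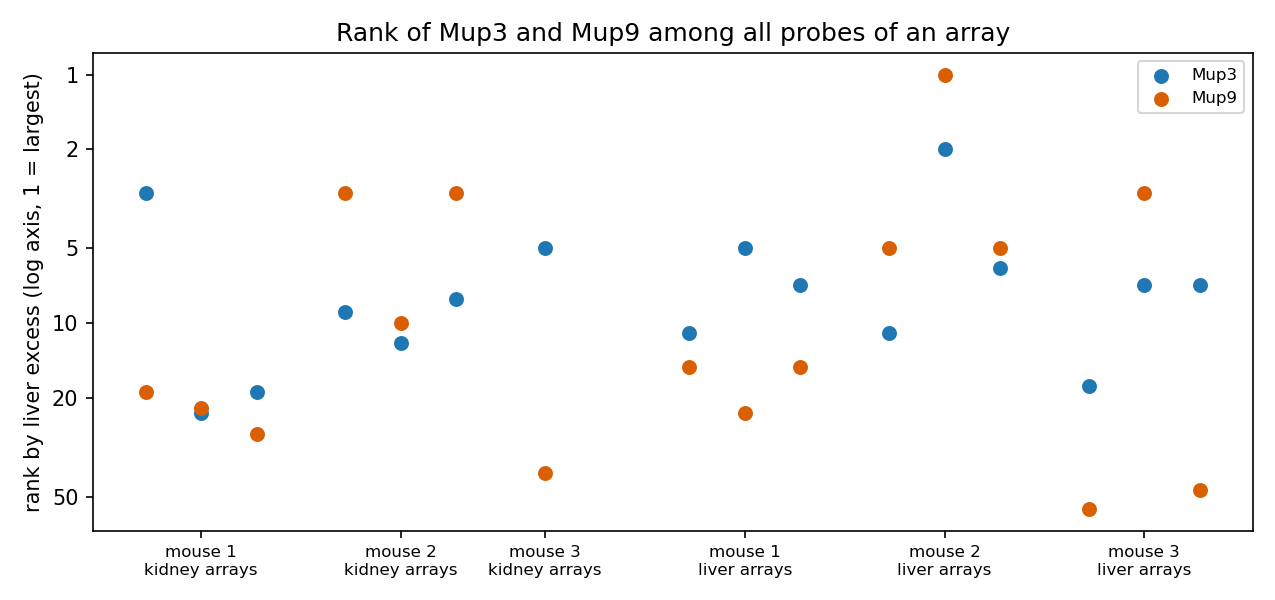
Rank of Mup3 (blue) and Mup9 (orange) among all probes with a value on the same array, ordered from the largest liver excess (rank 1, at the top, log axis), by mouse with kidney arrays left of liver arrays. Mup9 lies between 1 and 10 in mouse 2 and between 15 and 28 in mouse 1, and spreads from 3 to 56 in mouse 3.

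The difference between both probes on the same array is likewise free of the array median. Mup9 minus Mup3, each as log2 kidney over liver, was negative on 6 of 6 arrays of mouse 2, between -0.74 and -0.09, which means a larger liver excess of Mup9. In mouse 1 it was negative on 1 of 6 arrays, with values from -0.08 to 0.81, and in mouse 3 on 1 of 4, with 1.51 on the kidney array and 1.45, -0.33 and 1.63 on the liver arrays. The values of mouse 2 lay below those of mouse 1 without overlap, though narrowly at the nearest arrays (-0.09 in mouse 2 and -0.08 in mouse 1), and the array of mouse 3 at -0.33 fell within the range of mouse 2. Whether this difference between the probes varies between mice was not tested, and how often other pairs of probes show such a gap was not counted.

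**Figure D3:**
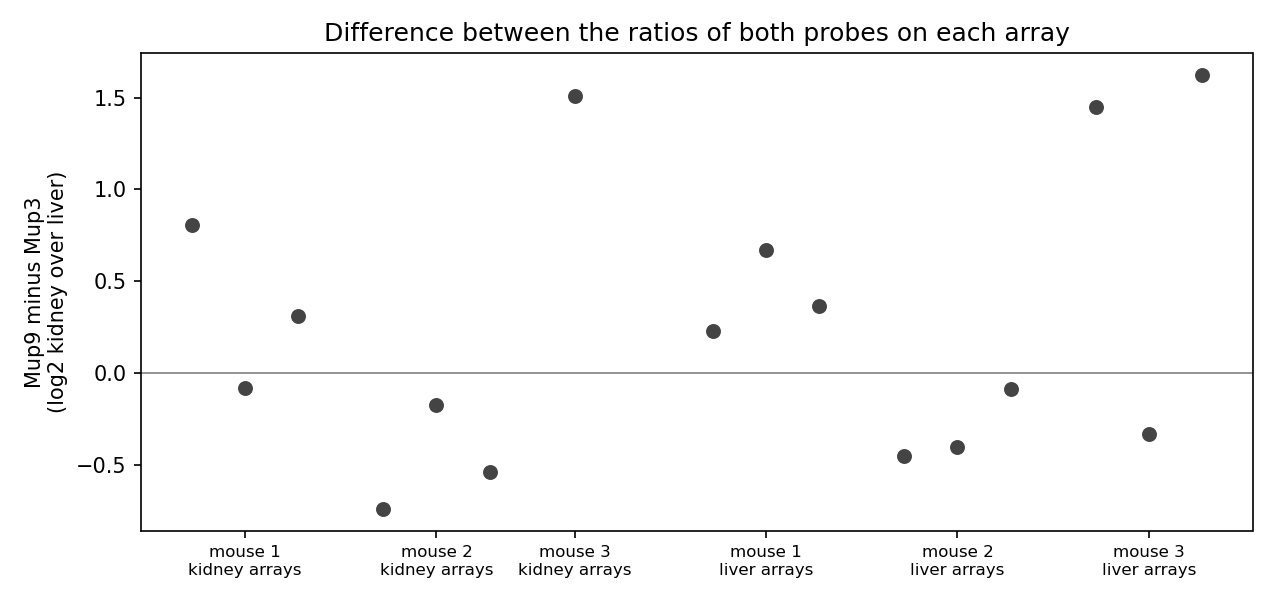
Mup9 minus Mup3, as the difference of their log2 ratios of kidney over liver on the same array, for 16 arrays by mouse with kidney arrays left of liver arrays. The 6 arrays of mouse 2 lie below 0, 5 of 6 arrays of mouse 1 and 3 of 4 of mouse 3 above it.

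Differences between mice were tested within each kind of arrays against the spread of repeat hybridisations, so the test is between RNA samples of single mice. On the deposited values both probes passed. The adjusted p on kidney arrays was 0.000971 for Mup3 and 5.34e-05 for Mup9, and on liver arrays it was 0.00768 for Mup3 and 0.00759 for Mup9 (limma's moderated F, Benjamini-Hochberg). On these arrays 73.9% of 14215 probes on kidney arrays and 86.6% of 16759 on liver arrays passed as well, so passing sets neither Mup probe apart. Mouse 3 had a single kidney array there. After each array was centred on its median, 49.9% of probes passed on kidney arrays and 42.1% on liver arrays. Of the Mup probes only Mup9 on kidney arrays then passed, with an adjusted p of 0.00682, while Mup3 on kidney arrays had 0.0844 and on liver arrays Mup3 had 0.273 and Mup9 0.262 (limma's moderated F, Benjamini-Hochberg). Without mouse 2, with mice 1 and 3 alone, none of the 4 tests passed (adjusted p of 0.389 for Mup3 and 0.768 for Mup9 on kidney arrays, 0.282 for Mup3 and 0.417 for Mup9 on liver arrays, limma's moderated F). Of all probes 0.0208% passed on kidney arrays and 1.31% on liver arrays in that fit.

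Centring moves all probes of an array alike, so the hepatocyte markers were set beside the Mup probes as deposited. On kidney arrays their median was between -7.51 and -7.32 in mouse 2, below the range of -7.17 to -6.66 in mice 1 and 3. On liver arrays it was between -7.27 and -6.80 in mouse 2 and between -7.26 and -6.85 in mice 1 and 3, so that the ranges overlapped. The proximal tubule markers of mouse 2 had medians of 3.63 to 4.48, against 4.79 to 5.63 in mice 1 and 3. Set against the hepatocyte median of the same array, Mup9 was at -2.52 to -1.15 in mouse 2 and at -0.72 to 1.32 in mice 1 and 3, and Mup3 at -2.12 to -1.03 in mouse 2 and at -0.92 to 0.40 in mice 1 and 3. Neither pair of ranges overlapped, but the share of all probes with such a gap was not counted. The hepatocyte median did not follow the array median of mouse 2 (-1.49 to -1.19), so this subtraction leaves that shift largely in. With each array aligned on these markers, an alignment chosen after seeing the data, both probes passed between mice on both kinds of arrays (adjusted p from 0.000295 for Mup9 to 0.0458 for Mup3 on kidney arrays, and 0.000848 for Mup9 and 0.00247 for Mup3 on liver arrays, limma's moderated F). So did 52.4% of all probes on kidney arrays and 82.6% on liver arrays. The part of the array normalization in the values of mouse 2 was not tested.

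The genes most like the Mup probes were sought by the root mean square difference of their kidney over liver values over the arrays, among 10141 probes with 1 symbol. For Mup3 these were Ahsg (fetuin-A, a secreted plasma protein; difference 0.509), Car3 (carbonic anhydrase 3; 0.531), Hp (haptoglobin, which binds free hemoglobin; 0.547, over 13 arrays), Mug-ps1 (0.582) and Apoc1 (an apolipoprotein; 0.582). For Mup9 they were Car3 (0.657), Alb (0.765), Hp (0.836, over 13 arrays), Ahsg (0.887) and Mug-ps1 (0.895), over 16 arrays unless given. Mup3 and Mup9 differed from each other by 0.781, so 6 probes were closer to Mup3 than Mup9 was, and 2 were closer to Mup9 than Mup3 was. Car3, at -7.86 (SE 0.31), stood high in both lists. By this measure only genes with a liver excess of about the same size can be close.

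Lipocalins other than the major urinary proteins went both ways. Of 26 listed genes 9 were tested, with 1 higher in kidney and 4 in liver. The shares over all 9047 genes were 5.56% in kidney and 8.88% in liver (limma, Benjamini-Hochberg). The liver calls were Rbp4, the retinol carrier of plasma (-7.09, SE 0.20), Ambp, the precursor of alpha-1-microglobulin and bikunin (-6.24, SE 0.23), Orm1, the acute phase protein orosomucoid (-5.85, SE 0.29), and C8g, a chain of complement component 8 (-1.37, SE 0.32). Apom, a lipocalin of high density lipoprotein made in both liver and kidney, was higher in kidney (0.87, SE 0.19). Lcn2, Lcn5, Ptgds and Apod did not pass and were at -0.75 to -0.16. The median over the list was -0.75, against -0.48 over all genes. The calls of C8g and Apom were lost without mouse 3 (adjusted p 0.0775 for C8g and 0.179 for Apom, limma) and that of Apom also without mouse 1 (0.205). C8g was not tested without mouse 1 or mouse 2. With the replicate block on kidney over liver 7 lipocalins were higher in liver, beside 5963 of 8988 genes in that fit. With the block on single sample over pool Apom was not called (adjusted p 0.267, limma) nor was C8g (0.0912).

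Of the genes through which growth hormone and androgens are known to act on liver, 14 of 26 listed were tested, with 2 higher in kidney and 2 in liver, beside shares of 5.56% in kidney and 8.88% in liver over all genes. The growth hormone products Igf1 (-3.88, SE 0.26) and Igfals, the acid-labile subunit that carries it in plasma (-3.30, SE 0.20), were higher in liver. Igfbp3, another carrier of insulin-like growth factors (2.40, SE 0.23), and the transcription factor Hnf4a (1.37, SE 0.21) were higher in kidney. Signal carriers between the growth hormone receptor and the Mup genes did not pass, with Jak2 at -0.77 (SE 0.39), Stat5b at -0.89 (SE 0.32) and Stat5a at -0.60 (SE 0.29). The list's median was -0.50, and -0.0031 after centring, beside -0.48 and -0.012 over all genes. Hnf4a lost its call without mouse 1 (adjusted p 0.0903) or mouse 3 (0.0525, limma). With the replicate block on kidney over liver 9 genes of the list were higher in liver, beside 5963 of 8988 genes in that fit. None of the 14 tested genes had an estimate below that of Igf1.

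Liver genes known for male bias or growth hormone dependence in rodents lay mostly on the liver side. Of 25 listed, 12 were tested, with 1 higher in kidney and 7 in liver, beside 5.56% in kidney and 8.88% in liver over all genes, and a median of -2.18, beside -0.48 over all genes. Serpina1e, an alpha-1-antitrypsin gene of a multi-copy family (-6.59, SE 0.40), Nudt7, a peroxisomal hydrolase of coenzyme A (-5.01, SE 0.23), Igfbp2, a binding protein of insulin-like growth factors (-4.13, SE 0.20), and Igf1 led the list. Cyp2d9, Egfr and Cyp7b1 followed with -3.72, -2.26 and -2.10. Ugt2b38, a glucuronosyltransferase, was higher in kidney (1.91, SE 0.30). The 4 that did not pass (Alas2, Cspg5, Gstp1 and Serpina12) were at -0.61 to 0.18. Some of these genes were already known to pass in these data when the list was written, so its count is a description. The list names liver genes, so a lean to the liver side follows in part from its definition. All animals were males, so male bias itself was not tested.

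**Figure D4:**
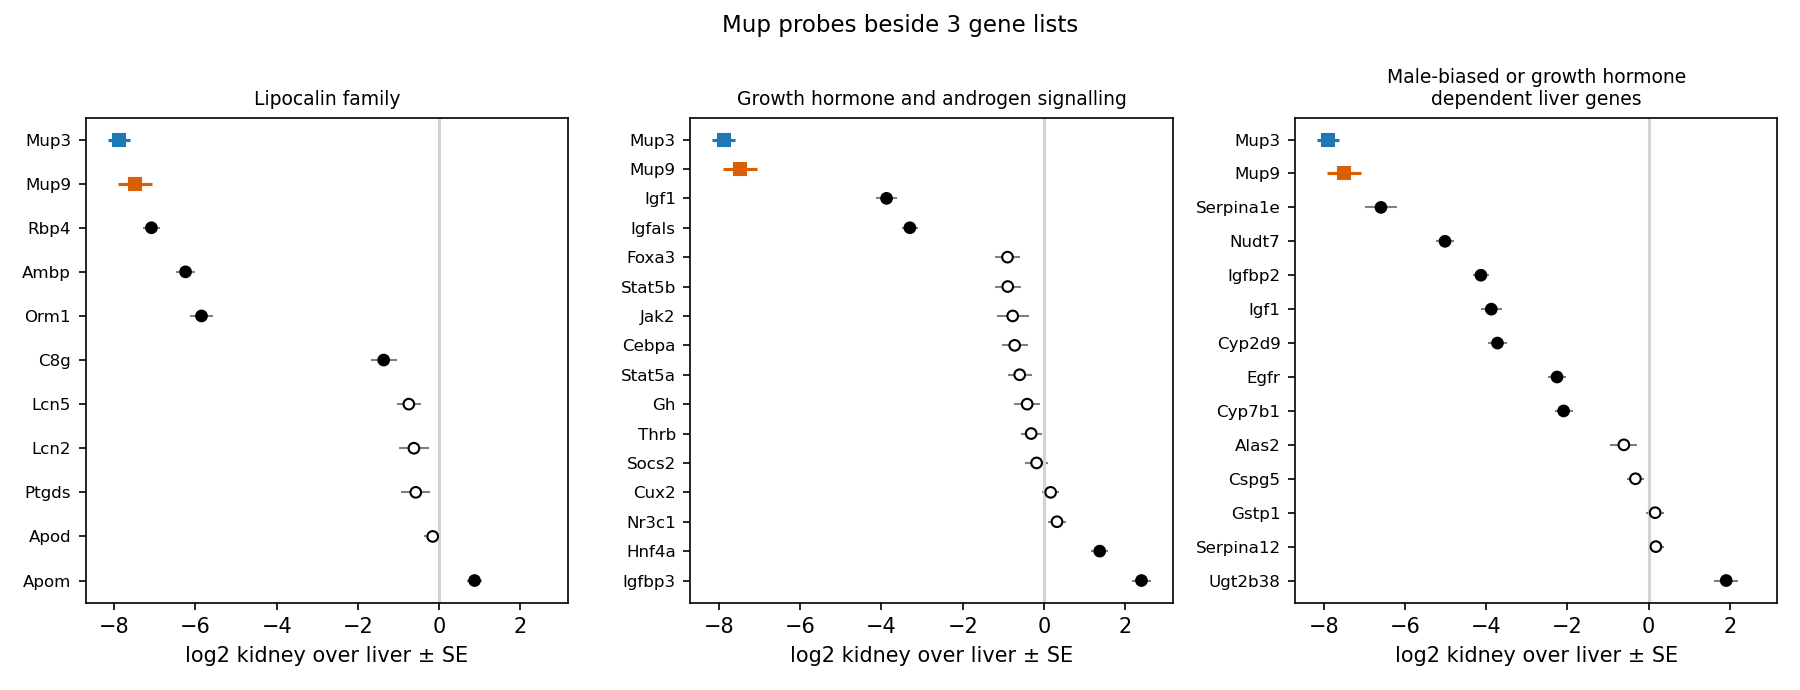
Estimates of log2 kidney over liver with SE for Mup3 and Mup9 (squares) beside the tested genes of 3 lists (circles, filled where limma's adjusted p passed): 9 lipocalins, 14 genes of growth hormone and androgen signalling and 12 liver genes of known male bias or growth hormone dependence. Both Mup probes lie at the liver end of each panel, closest to Rbp4 (-7.09) and Serpina1e (-6.59).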

How the data were processed

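Per the labels' protocols, indirect labelling with Cy3 or Cy5 started from 20 µg of total RNA, slides were scanned with a GenePix 4000A, and GenePix Pro 3.0 gave mean intensities minus background, which the protocols describe as normalised per array to a median ratio of 1. The deposited values of mouse 2 do not have that median: log2 medians as kidney over liver were -1.49 to -1.19 on its 6 arrays. The deposited values are log2 ratios. The base was read from the spacings of frequent values, of which 89 of 144 equalled a log2 ratio between whole numbers no larger than 20 within 1e-04, against 0 for the natural log and 12 for log10. Raw intensities were not used here, and the number of arrays limits precision.

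Values were turned to kidney over liver and hybridisations of a mouse and organ averaged. The 6 averages were fitted with limma 3.58.1 (R 4.3.3), as an overall mean plus an array kind term, for probes measured in 2 or more mice of each kind. Calls are two-sided at an adjusted p of 0.05. Probe names came from the platform's annotation (11590 of 11723 probes with 1 symbol matched RefSeq by gene number), and probes of a gene were averaged for lists. Named were both Mup probes, for each the 5 genes with the smallest root mean square difference over at least 12 arrays, and in each list the 4 called genes with the largest change plus those on the kidney side; other list members were named after their values were seen. Promoter windows were aligned with Biopython 1.88. Members and lists were chosen with earlier results of these data known.

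Per the labels, a mouse number is 1 animal whose kidney and liver were both used, so the numbers pair the samples. Deviations of a mouse as kidney over liver had correlations between its organs of 0.591 (mouse 1), 0.795 (mouse 2) and 0.585 (mouse 3), across 14688 probes, which are not replicates. As single sample over pool the sign turns on the liver arrays, so the correlations were by construction -0.591 (mouse 1), -0.795 (mouse 2) and -0.585 (mouse 3). On that scale both organs of a mouse thus tended to deviate in opposite directions, which restates the first set and is no second result.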

Additional observations from a re-analysis of the deposited data

How the results depend on the processing

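Over the 13 alternatives both Mup probes stayed higher in liver and called, with estimates from -8.13 to -6.97 for Mup3 and from -7.99 to -6.50 for Mup9 and adjusted p of at most 0.000578 for Mup3 and 0.0018 for Mup9 (limma). Leaving out each mouse gave -8.13 to -7.56 for Mup3 and -7.99 to -6.77 for Mup9. Kidney arrays minus liver arrays passed for neither probe in any of its 10 alternatives, of which the replicate block was added after seeing the data.

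Between mice, centring gave F of 4.31 for Mup3 on kidney arrays and, on liver arrays, 1.94 for Mup3 and 2.01 for Mup9, none of which passed. Without mouse 2 the F were 6.60 for Mup3 and 0.741 for Mup9 on kidney arrays and 4.04 for Mup3 and 2.14 for Mup9 on liver arrays, with none passing.

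The number of probes called, 967 higher in kidney and 1391 in liver, depended on the setting. It was 3328 in kidney and 2117 in liver after centring, 3578 and 2252 with arrays scaled to one spread, 1980 and 11629 after quantile normalization, and 1506 in kidney with trend and robust variances. A replicate block by mouse number gave 2761 in kidney and 12492 in liver on kidney over liver, and 427 and 539 on single sample over pool. The block on kidney over liver leaves the differences between mice out of the SE. Kidney arrays alone gave 332 in kidney and 442 in liver, and liver arrays alone 599 in kidney. Without mouse 2 the number rose to 2747 in kidney and 2126 in liver. It fell to 250 in kidney and 450 in liver without mouse 1, and to 303 in kidney and 496 in liver without mouse 3. Fits that leave out arrays have fewer samples, and the causes of these changes were not tested. The replicate block changed no Mup call.

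Of the lists, quantile normalization and the replicate block on kidney over liver each put 7 lipocalins and 9 signalling genes higher in liver. Of all genes, 5508 of 9047 were higher in liver after quantile normalization and 5963 of 8988 with that block. In the fit without either it was 803 of 9047. The lipocalin call in kidney went to 0 with the replicate block on single sample over pool, with only probes on all 16 arrays (where Apom was not tested) and with either kind of arrays alone. Kidney arrays alone left 1 signalling gene and 0 male-biased genes higher in kidney. Without 1 mouse, 3 lipocalins were higher in liver and 0 to 1 in kidney, and 1 to 3 signalling genes were higher in kidney. With 3 mice per organ and no intensities, the level of either probe over background could not be judged here.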
